A study of Mus musculus with 18 samples.

Results

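The genes described here are 46 genes of glycolysis, the hypoxia response and the tricarboxylic acid (TCA) cycle, among 55385 genes in the count table of a mouse gastruloid series. They were taken by gene name, with no measured value in the rule, and are set against each other as 29 glycolytic and hypoxia genes and 17 TCA cycle genes. The 17 include 3 pyruvate dehydrogenase genes and the cytosolic isozymes Aco1, Idh1 and Mdh1. The name Aldoa stands on 2 rows of the table, and the row with 43 to 95 counts per library was kept apart.

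Gastruloids are cultured aggregates of mouse embryonic stem cells used as a model of the embryo's early body axis. All were wild type, of the strain 129/SVEV, and each group had 3 RNA-seq libraries of polyadenylated RNA. The early arm received CHIR, a GSK3 inhibitor that activates Wnt signalling, from 24 to 48 h after aggregation and was collected at 48 h (the end of its pulse), 72 h and 96 h. The control arm received CHIR from 48 to 72 h and was collected at 48 h (untreated, since its pulse had not begun), 72 h (the end of its pulse) and 96 h. Gastruloids of a condition were pooled for extraction, and nothing in the labels ties the libraries of a group to separate cultures. P-values therefore measure only the spread between these libraries, which may be technical.

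Glycolysis turns glucose into pyruvate in the cytosol. Pyruvate is then either reduced to lactate and exported, or taken into mitochondria, where pyruvate dehydrogenase makes the acetyl-CoA that the TCA cycle oxidises. Under low oxygen the factor HIF raises genes of glucose uptake, glycolysis and lactate export, together with Pdk1, whose kinase slows pyruvate dehydrogenase. Pluripotent cells and the tailbud of vertebrate embryos are known for a high rate of glycolysis.

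Total counts were 14841728 to 24536538 per library, and 16041 genes were tested, among them all 46. Control replicate 3 stood apart at each age: its counts differed from those of the other control libraries by a chi-square of 15.4 to 28.1 per degree of freedom, against 1.41 to 7.90 in all other pairs of one group. It was above both other libraries at 20 of the 29 glycolytic and hypoxia genes at 48 h and at 20 of 29 at 72 h, and below both at 15 of 29 at 96 h. It also had the fewest total counts of its group at each age, 16018036 at 48 h, 14841728 at 72 h and 15446489 at 96 h. The part of depth in its position was not tested. Values that rest on control replicate 3 are given with and without it. Levels are given as CPM, counts per 1000000 counted reads. Epiblast markers summed to 2078 to 2303 CPM in the early arm at all ages, and to 2186 to 2366 CPM at 48 h, 1752 to 1943 CPM at 72 h and 326 to 610 CPM at 96 h in the control arm. None of the 7 was at 0. Pou5f1 alone held 1274 to 1337 CPM in the early arm, and the others did not move alike. From 48 to 96 h there, Sox2 ran from 196 to 252 CPM and then from 57.9 to 69.9 CPM. Nanog ran from 204 to 218 CPM and then from 356 to 391.5 CPM. Control libraries of 72 h had 242 to 342 CPM of Nanog, against 39.2 to 49.8 CPM at 48 h. Their Otx2 was at 13.0 to 30.0 CPM, against 171.6 to 178 CPM. The sums therefore hide opposite changes of single markers. The 5 primitive streak and tailbud markers, none at 0, summed to 116 to 139, 121 to 126.5 and 789 to 1019 CPM in the early arm at 48, 72 and 96 h, and to 8.35 to 9.04, 1426 to 1867 and 1719 to 1876 CPM in the control arm. From 72 to 96 h in the control arm, this sum hides opposite changes. Eomes went from 125.3, 122.5 and 26.25 CPM to 3.86, 2.88 and 0.62 CPM. Cdx2 went from 16.5, 19.75 and 37.8 CPM to 248, 237 and 364 CPM. T was lower and Nkx1-2 higher at 96 h without overlap, and Mixl1 overlapped. Early libraries of 96 h had 3.18 to 4.20 CPM of Cdx2. The 4 presomitic and somite markers summed to 152 to 488 CPM in control gastruloids of 96 h and to 2.82 to 8.30 CPM in all other groups. Of the 4, Tcf15 did not follow the sum. It had at most 2.36 CPM in control libraries of 96 h, against 5.347 to 5.705 CPM in those of 48 h. Markers of extraembryonic endoderm, trophoblast, fibroblasts and blood summed to at most 13.98, 17.03, 39.26 and 1.22 CPM, with the fibroblast gene Lum and the blood gene Hbb-bh1 at 0 in every library. In these bulk samples, fewer cells of a type and less RNA per cell cannot be told apart, and the part of cell type in the results was not tested. Mitochondrial transcripts summed to 8256 to 15670 CPM.

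Per length, glycolytic enzymes were the most abundant members. Averaged over the 6 groups, Gapdh had 830.0 CPM per kilobase of exon, Pkm 584, Ldha 576, Aldoa 444 and Eno1 392, while the highest TCA cycle gene, Mdh2, had 94.5. The spread over groups was wider among glycolytic and hypoxia genes. Their highest group mean was a median of 1.59 times their lowest, from 1.15 times for Hif1a to 12.8 times for Slc2a1, and 8 of 29 reached 2 times. Among TCA cycle genes the median was 1.32 times, and only Aco1 reached 2 times, with 2.01.

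**Figure D1:**
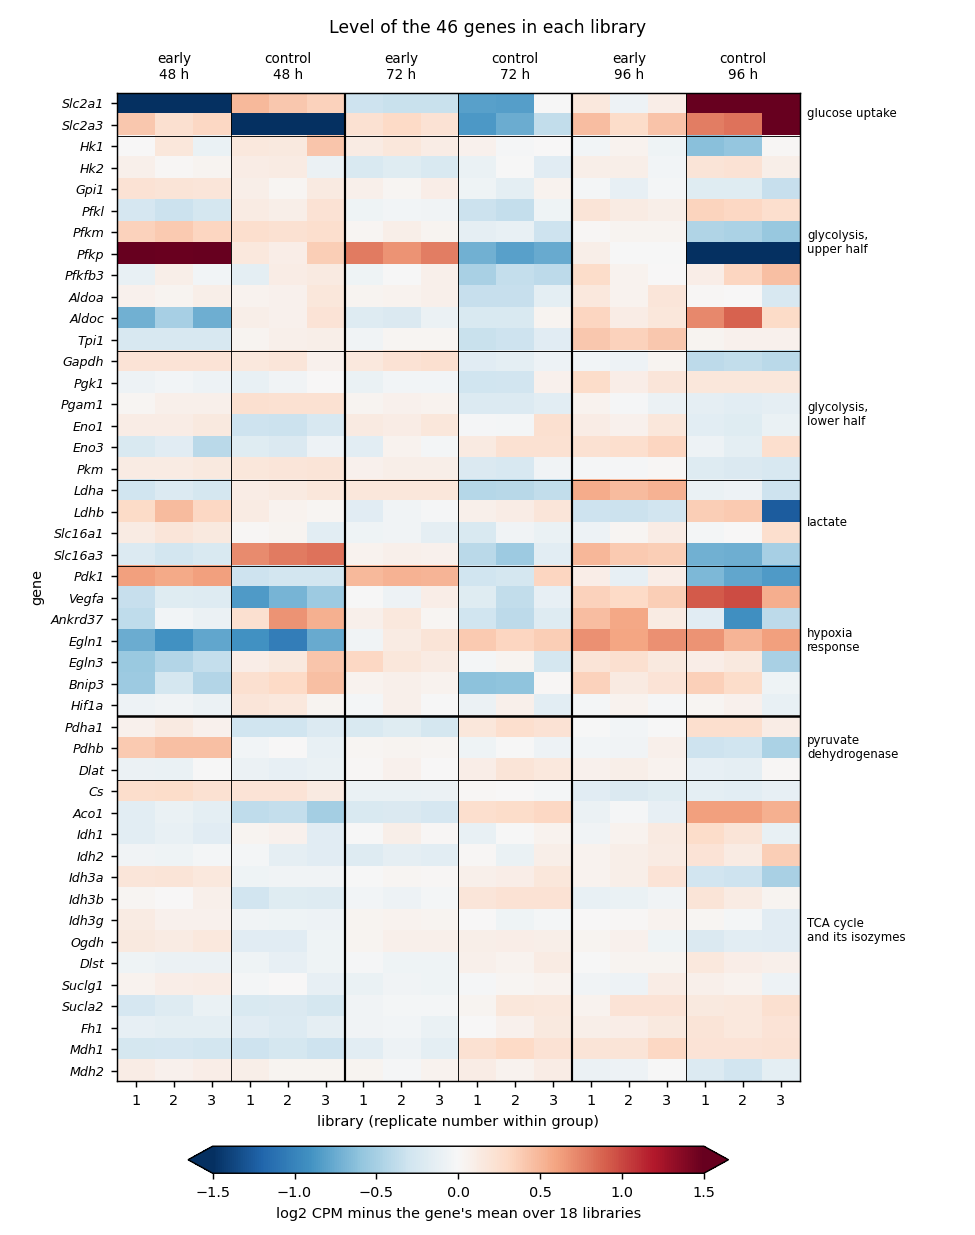
Level of the 46 genes in each of the 18 libraries, as log2 CPM minus the gene's mean over all libraries, with early beside control at each age. Colour is capped at 1.5 in each direction. Slc2a1, Slc2a3 and Pfkp hold the strongest colours, and the 17 TCA cycle genes below the thick line vary less.

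The summed level of the 29 glycolytic and hypoxia genes, in CPM per kilobase of exon, was 3995 ± 24.4, 4168 ± 56.3 and 4294 ± 116 in early gastruloids of 48, 72 and 96 h, and 4133 ± 21.6, 3429 ± 232.5 and 3860 ± 23.6 in control gastruloids (SD, n = 3 each). The lowest libraries were those of the control arm at the end of its pulse. The sum is weighted to abundant glycolytic genes such as Gapdh and Pkm, and the 7 hypoxia response genes held only 102.1 to 134.4 of it per library. Alone, those 7 summed to 102.1, 105.9 and 121.5 in control libraries of 72 h, which overlapped the 126.5, 123.1 and 105.7 of control libraries of 96 h. The 17 TCA cycle genes summed to 688 ± 1.39, 644.0 ± 4.77 and 679 ± 16.25 in the early arm at the same ages and to 625 ± 5.54, 719 ± 8.83 and 683 ± 13.1 in the control arm. At 72 h the control libraries were thus the lowest in the first sum and the highest in the second. The ratio of the sums was 5.78, 5.82 and 5.82 in early libraries of 48 h, against 6.54, 6.60 and 6.71 in control libraries. At 72 h it was 6.42, 6.44 and 6.56 in early libraries, against 4.64, 4.58 and 5.09 in control libraries. At 96 h it was 6.53, 6.19 and 6.27 in early libraries, against 5.54, 5.63 and 5.80 in control libraries. The libraries of the arms did not overlap at any age, and the arm with the lower ratio was early at 48 h and control at 72 and 96 h. In the control arm from 72 to 96 h, the transporters Slc2a1 and Slc2a3 together went from 75.9, 77.0 and 124.9 to 410.2, 395.0 and 699.2. Lower glycolytic genes, Gapdh to Pkm, went from 1834, 1834 and 2061 to 1754, 1747 and 1749. Upper ones went from 695.9, 695.5 and 776.9 to 856.1, 853.4 and 768.4. Lactate genes went from 579.7, 589.0 and 612.0 to 709.6, 719.7 and 562.7. Replicate 3 of 96 h was highest in the transporter sum and lowest in the upper glycolytic and lactate sums. These sums are a description, with no test.

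**Figure D2:**
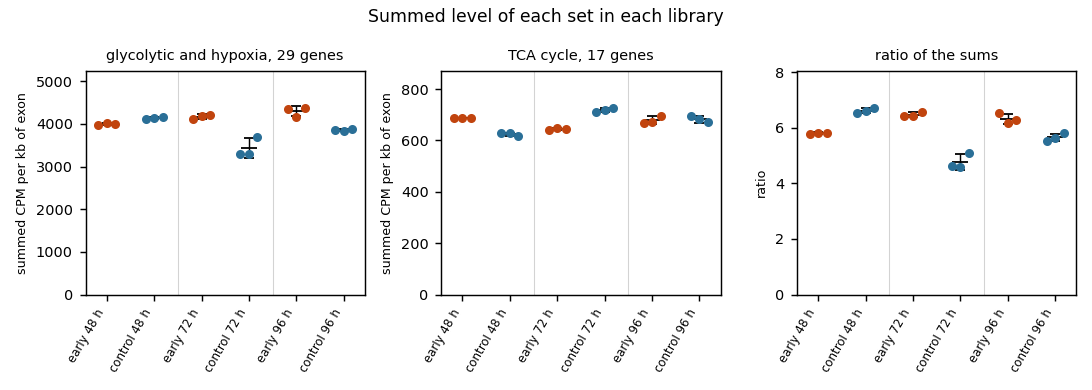
Summed CPM per kilobase of exon of the 29 glycolytic and hypoxia genes (left) and the 17 TCA cycle genes (middle), and their ratio (right), by group. Points are libraries, horizontal marks the mean and bars the SD (n = 3). The ratio is lowest, 4.58 to 5.09, in control gastruloids of 72 h.

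At the end of the early pulse, early gastruloids of 48 h were compared with untreated control gastruloids of the same age. Among glycolytic and hypoxia genes 11 of 29 fell and 6 rose, and among TCA cycle genes 8 of 17 rose and 0 fell, at an adjusted p under 0.05 in edgeR's quasi-likelihood test. Over all tested genes 23.0% were called higher and 20.7% lower, and among the 4595 genes with a mean of at least 50 CPM 26.9% were higher and 22.3% lower. The median log2 fold change was -0.05 over the glycolytic and hypoxia genes, 0.08 over the TCA cycle genes and 0.02 over all genes. No TCA cycle gene was lower at an unadjusted p under 0.05, by DESeq2 or by limma on FPKM either.

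Over the control pulse, control gastruloids of 72 h were compared with control gastruloids of 48 h. No untreated gastruloids of 72 h were collected, so the pulse and the further day of culture cannot be told apart in this contrast. Among glycolytic and hypoxia genes 17 of 29 fell and 5 rose, and among TCA cycle genes 10 of 17 rose and 1, Cs, fell. All genes tested were called higher in 31.1% and lower in 30.3%, and the genes of at least 50 CPM in 24.6% and 44.0%, so abundant genes were called lower more often than higher as well. The streak and tailbud markers moved with this step, at 1426 to 1867 CPM in control gastruloids of 72 h, against 8.35 to 9.04 CPM in those of 48 h, and their part was not tested. Median changes were -0.26 over the glycolytic and hypoxia genes, 0.18 over the TCA cycle genes and 0.01 over all genes.

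The 2 contrasts share the control libraries of 48 h, so their calls are set side by side only as counts. They are also unlike in design, since only that of the early pulse is between gastruloids of the same age. Slc2a1, Pfkl, Tpi1, Pgam1, Ldha, Slc16a3, Ankrd37, Bnip3 and Hif1a were lower at the end of both pulses (9 of 29), and Slc2a3, Eno1 and Vegfa were higher at both (3 of 29). Pfkp was called in opposite directions. Pdha1, Aco1, Idh3a, Idh3b and Ogdh were higher at both (5 of 17). Of all genes tested 11.4% were lower and 12.2% higher at both, and of the genes of at least 50 CPM 15% and 12.3%. Ankrd37 was not called at 48 h by DESeq2, without a filter on low counts, without early replicate 1 or without control replicate 2 (adjusted p = 0.0696 and 0.0661 in edgeR for these libraries), and Hif1a was not called over the control pulse on FPKM, without control replicate 1 of 48 h or without control replicate 3 of 72 h (adjusted p = 0.0548 and 0.069).

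At 72 h, early gastruloids, a day past their pulse, were compared with control gastruloids at the end of theirs. This comparison shares the control libraries of 72 h, on the opposite side, with that over the control pulse, so the 2 are not separate evidence. Glycolytic and hypoxia genes were higher in 14 of 29 and lower in 2, Eno3 and Egln1 (in 1 without control replicate 1 or 2 or early replicate 1 or 3), and TCA cycle genes were lower in 10 of 17 and higher in 0. Of all genes tested 21.7% were higher and 23.2% lower, and of the genes of at least 50 CPM 26.3% were higher and 23.7% lower. Median changes were 0.23, -0.12 and -0.02 in the glycolytic and hypoxia genes, the TCA cycle genes and all genes. The count of lower TCA cycle genes was 6 without control replicate 3, without early replicate 1 or without early replicate 3 of 72 h, 6 without all control libraries numbered 3, and 4 with no filter on low counts. The smallest of these falls were those of Cs (-0.10 ± 0.03) and Dlat (-0.12 ± 0.04). No TCA cycle gene was higher at an unadjusted p under 0.05, by DESeq2 or by limma on FPKM.

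At 96 h the TCA cycle genes were called in both directions, in shares near those of all genes. Glycolytic and hypoxia genes were higher in early than in control gastruloids in 15 of 29 and lower in 5, where 29.5% of all genes were higher and 29.6% lower, and 36.0% and 29.1% of the genes of at least 50 CPM. TCA cycle genes were higher in 5 of 17 and lower in 5, and that last count was 3 without control replicate 1 or without early replicate 1, 2 or 3. Medians were 0.18 over the glycolytic and hypoxia genes, -0.02 over the TCA cycle genes and -0.01 over all genes.

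From 48 to 72 h the early arm, after its pulse, rose in 9 of 29 glycolytic and hypoxia genes and fell in 4, with 20.7% of all genes higher and 21.9% lower. TCA cycle genes rose in 2 of 17, Sucla2 and Mdh1, and fell in 5. Of the genes of at least 50 CPM 13.2% were higher and 39.0% lower, a larger share of falls than among the TCA cycle genes. Of the 2 TCA cycle rises 0 were called without early replicate 2 of 72 h, and 1 without any other early library of 48 or 72 h except early replicate 3 of 48 h. The test of the difference between the arms in this step was positive (early step above control step) for 15 of 29 glycolytic and hypoxia genes and negative for 3, and negative for 13 of 17 TCA cycle genes and positive for 0 (0 at an unadjusted p under 0.05 in edgeR, by DESeq2 and by limma on FPKM). For all genes it was positive in 22.8% and negative in 23.6%, and for those of at least 50 CPM in 25.2% and 26.1%. The TCA cycle count was 8 without all control libraries numbered 3 and 7 with no filter. The test of the difference reuses the libraries compared at 48 h, at 72 h and over the control pulse. From 72 to 96 h the early arm rose in 10 of 29 glycolytic and hypoxia genes and fell in 3, against 17.6% of all genes in each direction and 17.6% higher and 24.2% lower among those of at least 50 CPM. TCA cycle genes rose in 6 of 17 and fell in 1, Cs, which was not called without early replicate 1, 2 or 3 of 72 h or early replicate 2 of 96 h, while 2 fell without early replicate 3 of 96 h. The control arm, in the day after its pulse, rose in 14 of 29 and fell in 8, and TCA cycle genes rose in 3 of 17 and fell in 6, against 27.5% of all genes higher and 27.4% lower, and 25.8% and 36.6% of those of at least 50 CPM, so the share of TCA cycle genes that fell was near that of abundant genes. The difference between the arms in this later step was positive for 4 of 29 glycolytic and hypoxia genes and negative for 5, and positive for 7 of 17 TCA cycle genes and negative for 0, where all genes were positive in 17.8% and negative in 15.7%, and those of at least 50 CPM in 21.8% and 18.2%. Without control replicate 3 of 96 h these counts were 7 and 9 among glycolytic and hypoxia genes and 7 and 2 among TCA cycle genes, and without control replicate 3 of 72 h the negative glycolytic and hypoxia genes were 8. The count of 0 was 1 at an unadjusted p under 0.05 in edgeR, 1 by DESeq2 and 0 by limma on FPKM.

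**Figure D3:**
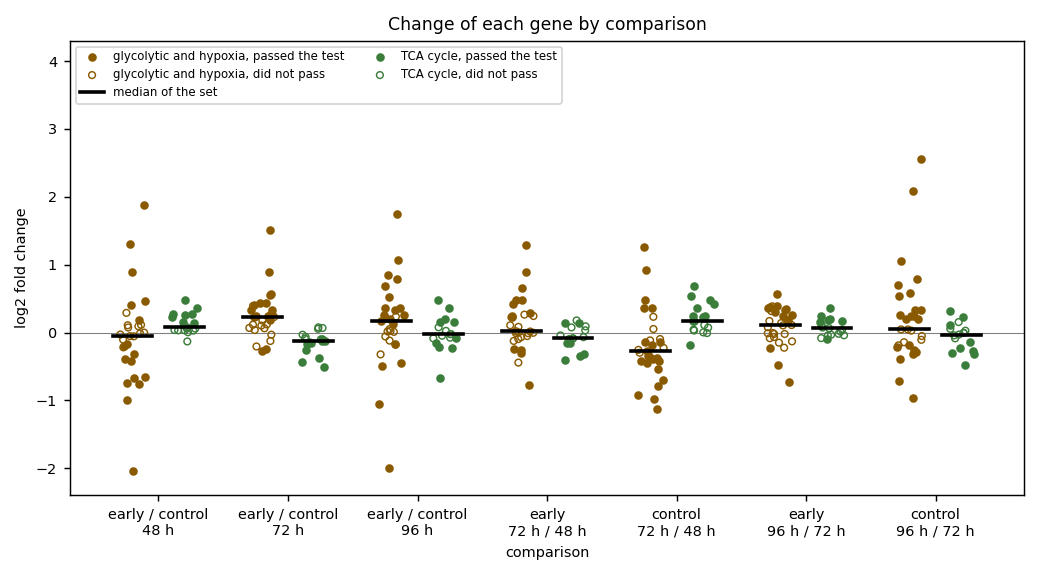
Log2 fold change of each of the 46 genes in the 7 comparisons of 2 groups, with the group named first over the second. Filled points passed the test (edgeR, adjusted p under 0.05), open points did not, and black bars are medians. The medians of the sets are furthest apart for control 72 h over 48 h (-0.26 and 0.18) and for early over control at 72 h (0.23 and -0.12). These 2 comparisons share the control libraries of 72 h, on opposite sides.

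The glucose transporters moved in opposite directions at the end of the early pulse. Slc2a1, which encodes GLUT1, the widespread glucose carrier of embryonic tissue, had 108.5, 105 and 113 CPM in early libraries of 48 h, against 470, 443 and 424 CPM in control libraries. The groups did not overlap, and the change was -2.04 ± 0.18 (adjusted p = 4.7e-08). At 72 h it had 270.3, 265 and 266 CPM in early libraries, against 190.3, 188 and 332 CPM in control libraries, which lay on both sides of the early ones. That difference (0.18) did not pass (adjusted p = 0.434), but was 0.51 without all control libraries numbered 3 (adjusted p = 2.36e-08). At 96 h it had 373, 317 and 358 CPM in early libraries, against 1204, 1143 and 1813 CPM in control libraries, again without overlap (-1.99 ± 0.18, adjusted p = 2.43e-08). The control arm fell over its pulse (-0.92 ± 0.17) and rose in the day after it (2.55 ± 0.18).

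Slc2a3, which encodes GLUT3, a carrier with high affinity for glucose, had 373, 333 and 352 CPM in early libraries of 48 h, against 92.4, 96.3 and 97.6 CPM in control libraries. It was higher by 1.89 ± 0.26 (adjusted p = 1.18e-05), and the groups did not overlap. In the early arm it then ran from 329.5 to 389.8 CPM at 72 and 96 h. At 96 h control libraries had 484, 500 and 1319 CPM, so replicate 3 stood far above the others. The early arm was lower by a log2 change of -1.05 ± 0.25 with it and -0.40 without it (adjusted p = 0.0015 and 5.38e-04). Over the control pulse Slc2a3 rose by 0.93 ± 0.26. Per length, Slc2a3 made up 61.1% ± 1.22 of the pair in early gastruloids of 48 h and 9.41% ± 0.67 in control gastruloids (SD, n = 3 each), with 37.9% and 27.7% at 72 h and 34.0% and 19.9% at 96 h.

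In the upper steps of glycolysis the phosphofructokinases, which catalyse the committed step, split by isozyme. Pfkp, the platelet-type subunit, had 177.5, 170.3 and 175 CPM in early libraries of 48 h, against 67.9, 65.4 and 78.7 CPM in control libraries. It had 104, 97.3 and 104 CPM in early libraries of 72 h, against 36.9, 34.5 and 35.9 CPM in control libraries. It had 64.5, 60.4 and 60.4 CPM in early libraries of 96 h, against 17.4, 18.6 and 19.3 CPM in control libraries. No early library overlapped a control library of its age, and the early arm was higher by 1.31 ± 0.06, 1.51 ± 0.06 and 1.75 ± 0.07 at 48, 72 and 96 h (adjusted p = 5.68e-12, 4.22e-12 and 3.53e-13). Within each arm Pfkp fell at both steps, by log2 changes of -0.78 and -0.72 in the early arm and -0.98 and -0.96 in the control arm, and the difference between arms in a step did not pass at either (0.20 and 0.24, adjusted p = 0.0614 and 0.0514). Exons of Pitrm1 on the other strand overlap 748 of the 13401 exon bases of Pfkp, and the strand setting of the counting is not given in the sources used here.

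Pfkl, the liver-type subunit, went the other way at 48 h, with 269, 256.5 and 266 CPM in early libraries, against 349, 340.2 and 370.5 CPM in control libraries (-0.42 ± 0.06, adjusted p = 1.17e-05). It fell over the control pulse as well (-0.39 ± 0.06) and rose in the day after it (0.54 ± 0.06). Its rise at 72 h (0.19 ± 0.06) was 0.30 without all control libraries numbered 3 and was not called without control replicate 1 or 2 (adjusted p = 0.0601 and 0.0732), and its fall at 96 h (-0.16 ± 0.06) was not called without control replicate 1 or 2 or early replicate 2 or 3. Pfkm, the muscle-type subunit, did not pass at 48 h (0.11, adjusted p = 0.0669) and was higher in the early arm at 72 h (0.23 ± 0.05) and 96 h (0.53 ± 0.05). Per length, Pfkp made up 14.8% ± 0.23 of the 3 genes in early gastruloids of 48 h and 5.80% ± 0.38 in control gastruloids, and 5.40% ± 0.11 and 1.73% ± 0.15 at 96 h (SD, n = 3 each), while Pfkl made up 45.0% and 58.3% at 48 h.

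Of the other upper genes, Tpi1, the triose phosphate isomerase, fell at the end of both pulses (-0.31 ± 0.04 and -0.34 ± 0.04) and was higher in the early arm at 72 h (0.27 ± 0.04) and 96 h (0.33 ± 0.04). Aldoa, the main aldolase of most tissues, was higher in the early arm at 72 h (0.33 ± 0.06) and at 96 h (0.20 ± 0.06, and 0.13 without control replicate 3). Aldoc, the brain-type aldolase, was lower in early than in control gastruloids at 48 h (-0.76 ± 0.13) and at 96 h (-0.45 ± 0.12), and rose in the control arm from 72 to 96 h (0.80 ± 0.13). Pfkfb3, whose product makes the activator of phosphofructokinase, fell over the control pulse (-0.45 ± 0.10), was higher in the early arm at 72 h (0.41 ± 0.10) and rose in the control arm from 72 to 96 h (0.70 ± 0.10). The hexokinases trap glucose as its phosphate. Hk2, at 165 to 224 CPM in every library, passed in 4 of the 7 comparisons with changes of at most 0.26 in size, of which the fall over the control pulse (-0.14) ended without 4 of the 6 control libraries compared. The more weakly expressed Hk1 was higher in the early arm at 96 h (0.36 ± 0.13), which was not called without control replicate 1 or 2 or early replicate 2 and was 0.60 without control replicate 3. Gpi1, glucose phosphate isomerase, was higher in the early arm at 96 h (0.18 ± 0.05) and fell in both control steps (-0.14 and -0.19). The first of these falls ended without control replicate 1 or 3 of 48 h or replicate 1 or 2 of 72 h, and the second was -0.07 without all control libraries numbered 3 (adjusted p = 0.208).

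In the lower steps, Gapdh, Pgam1 and Pkm, which carry triose phosphate to pyruvate, fell over the control pulse (-0.26 ± 0.04, -0.42 ± 0.04 and -0.35 ± 0.04). All 3 were higher in the early arm at 72 h (0.34 ± 0.04, 0.24 ± 0.04 and 0.25 ± 0.04) and at 96 h (0.36 ± 0.04, 0.13 ± 0.04 and 0.22 ± 0.04). At 48 h, of these only Pgam1 passed (-0.17 ± 0.04). Gapdh, often used as a constant control, had 3783, 3950 and 3996 CPM in early libraries of 72 h, against 3011, 3055 and 3225 CPM in control libraries, and the groups did not overlap. Pgk1, phosphoglycerate kinase, rose from 72 to 96 h in the control arm (0.33 ± 0.07) and the early arm (0.25 ± 0.07, not called without early replicate 1 of 96 h, adjusted p = 0.0595) and passed in no other comparison.

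Enolase went against its neighbours. Eno1 had 2254, 2261 and 2320 CPM in early libraries of 48 h, against 1686, 1682 and 1778 CPM in control libraries (0.41 ± 0.06, adjusted p = 1.24e-05), with no overlap. It rose over the control pulse too (0.36 ± 0.06). Near-identical copies, mainly the retrogene Eno1b, held 15.1% to 16.7% of the counts of Eno1 and its copies together, so part of its reads may be assigned to either. Eno3, the muscle-type enolase, had 13.3 to 22.2 CPM in all libraries and rose over the control pulse (0.36 ± 0.10). Its lower level in the early arm at 72 h (-0.24 ± 0.10, adjusted p = 0.049) ended without any of 5 of the 6 libraries compared, and its higher level at 96 h (0.26 ± 0.10) ended without control replicate 1 or 2 or early replicate 3 and was 0.39 without control replicate 3.

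For lactate, the dehydrogenase subunit Ldha and the lactate exporter Slc16a3 (MCT4) were both lower in the early arm at 48 h and higher at 72 and 96 h, while from 72 to 96 h in the control arm Ldha rose (0.24 ± 0.05) and Slc16a3 fell. Ldha had 1508, 1617 and 1549 CPM in early libraries of 48 h, against 2004, 2044 and 2090 CPM in control libraries (-0.39 ± 0.05, adjusted p = 3.83e-06). At 72 h it had 2099, 2094 and 2091 CPM in early libraries, against 1382, 1398 and 1439 CPM in control libraries (0.57 ± 0.05, adjusted p = 4.53e-08). At 96 h it had 2739, 2593 and 2683 CPM in early libraries, against 1735, 1760 and 1500 CPM in control libraries (0.68 ± 0.05, adjusted p = 1.76e-09). Early libraries were all below control libraries at 48 h and all above them later, and the difference between arms in the step from 48 to 72 h was 0.97 ± 0.07 (adjusted p = 3.11e-09).

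Slc16a3 had 151.3, 144 and 149 CPM in early libraries of 48 h, against 285, 297.5 and 306 CPM in control libraries (-1.0 ± 0.07, adjusted p = 3.68e-09). At 72 h it had 180.2, 183 and 182 CPM in early libraries, against 131, 119 and 155 CPM in control libraries (0.43 ± 0.07). At 96 h it had 246, 229 and 224 CPM in early libraries, against 105.5, 105 and 123 CPM in control libraries (1.07 ± 0.07, adjusted p = 9.69e-10). The libraries of the arms did not overlap at any age. Slc16a3 was the single member whose arms were called in opposite directions in both steps: the early arm rose by 0.30 ± 0.07 and 0.36 ± 0.07, while the control arm fell by log2 changes of -1.13 ± 0.07 and -0.28 ± 0.08, the last being -0.18 without control replicate 3 of 72 h. On FPKM the call of the last fall and of the last rise ended.

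Slc16a1 (MCT1), which carries lactate either way, stayed between 141 and 195 CPM in all libraries. Its rise at 48 h (0.18 ± 0.07) ended without all control libraries numbered 3 (adjusted p = 0.0754) and without each of 5 of the 6 libraries compared. Ldhb, whose subunit favours pyruvate, passed in 0 of the 7 comparisons in edgeR with all libraries. At 96 h it had 127, 126 and 129 CPM in early libraries, against 203, 206 and 66.3 CPM in control libraries, which lay on both sides of the early ones. Without all control libraries numbered 3 it passed in 6 of the 7, among them early against control at 48 h (0.26), 72 h (-0.17) and 96 h (-0.67).

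**Figure D4:**
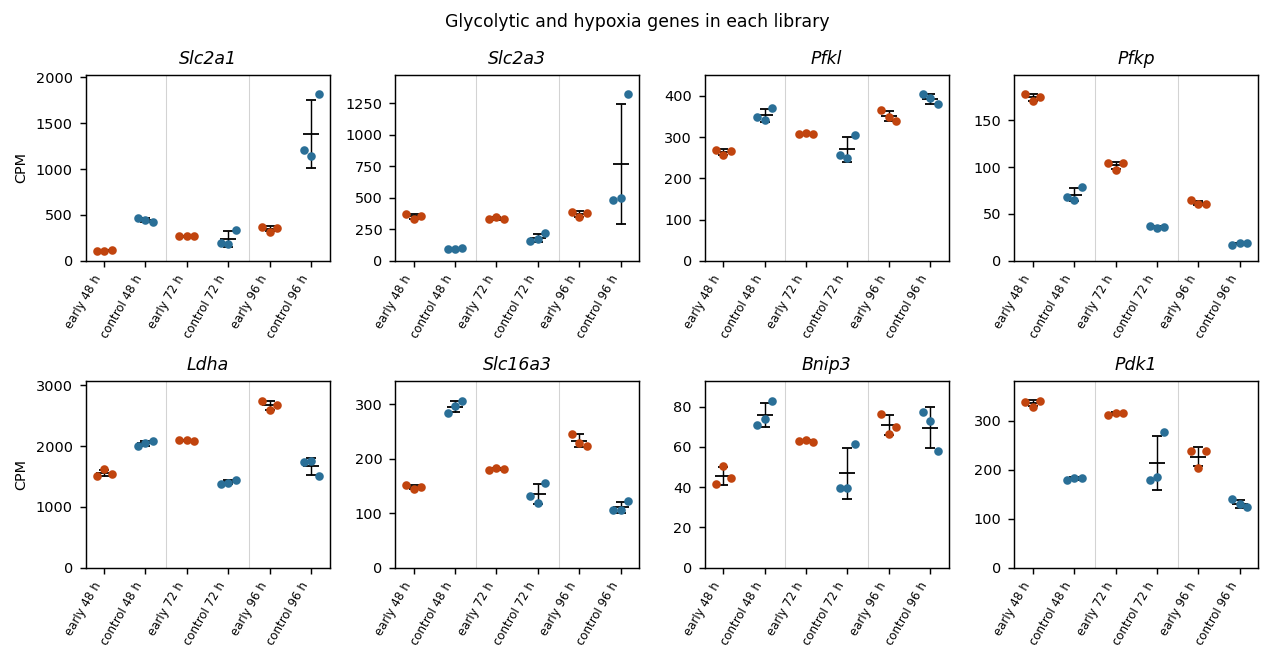
CPM of 8 glycolytic and hypoxia genes in each library. Red points are early, blue points control, horizontal marks the mean and bars the SD (n = 3 per group). Slc2a1, Pfkl, Ldha, Slc16a3 and Bnip3 lie lower in early than in control gastruloids at 48 h, and Slc2a3, Pfkp and Pdk1 higher. Control replicate 3 of 96 h lies far above the others for Slc2a1 and Slc2a3.

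Genes of the hypoxia response did not move as a block. Pdk1, the kinase that slows pyruvate dehydrogenase, had 338.5, 329 and 339 CPM in early libraries of 48 h, against 179, 183 and 183 CPM in control libraries (0.89 ± 0.11, adjusted p = 3.36e-06). It was also higher in the early arm at 72 h (0.56 ± 0.11), where the control libraries had 179.5, 184 and 277 CPM, and at 96 h (0.79 ± 0.11). Its fall in the control arm from 72 to 96 h was -0.71 ± 0.11 with all libraries and -0.43 without all control libraries numbered 3. Bnip3, a mitophagy receptor induced by HIF, had 41.5, 50.3 and 44.3 CPM in early libraries of 48 h, against 71.0, 74.0 and 82.7 CPM in control libraries (-0.74 ± 0.13, adjusted p = 1.98e-04). At 72 h the early libraries had 62.8, 63.6 and 62.6 CPM, against 39.5, 39.6 and 61.3 CPM in control libraries, where replicate 3 came close to the early level. The difference at 72 h (0.44 ± 0.13) was 0.67 without control replicate 3 and was not called without control replicate 1 or 2 (adjusted p = 0.0778 and 0.0784).

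Vegfa, the endothelial growth factor, had 22.3, 25.04 and 24.9 CPM in early libraries of 48 h, against 15.7, 17.5 and 19.4 CPM in control libraries (0.46 ± 0.11). At 96 h it had 36.2, 35.0 and 36.7 CPM in early libraries, against 53.9, 56.0 and 41.3 CPM in control libraries (-0.49 ± 0.10), without overlap at either age. Egln1, an oxygen-sensing prolyl hydroxylase that marks HIF for breakdown, rose over the control pulse (1.26 ± 0.08, adjusted p = 1.32e-10) and in the early arm from 48 to 72 h (0.90 ± 0.08) and from 72 to 96 h (0.56 ± 0.07). It did not pass between the arms at 48 h or at 96 h and was lower in the early arm at 72 h (-0.27 ± 0.07). Its relative Egln3 was lower in the early arm at 48 h (-0.67 ± 0.13) and rose there by 72 h (0.65 ± 0.13). Ankrd37, a HIF target with 0.87 to 2.62 CPM in all libraries, was higher in the early arm at 96 h (0.85 ± 0.21). Hif1a itself stayed between 199 and 252 CPM in all libraries, and its largest called difference between 2 groups was the -0.20 ± 0.06 at 48 h.

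Several of the genes that were lower at the end of both pulses are long-known HIF targets, so their promoters were searched for the core of the hypoxia response element. The motif was ACGTG or GCGTG on either strand, in 300 bases from 250 before to 50 after each start in RefSeq's promoter table (GRCm38.p6). Of the 46 genes 44 were matched, some with several starts whose windows overlap. The motif stood in 34 of 42 promoters of glycolytic and hypoxia genes (81.0%) and in 16 of 22 promoters of TCA cycle genes (72.7%), against 43.8% of all 32851 promoters. With ACGTG alone the shares were 54.8%, 40.9% and 19.6%. Both forms of the motif hold a CG. The 32851 promoters belong to 27025 genes, more than the 16041 tested, and were not matched to the members in expression or base content. The part of base content in these shares was not tested. The 250 bases before the start are printed for 4 genes that were lower at the end of both pulses and for Aco1, which was higher at both and holds no match in this window; each is given 5′ to 3′ on the gene's strand, with matches on either strand in capitals, and overlapping matches run together.
Slc2a1 (chr4:119108495-119108744, + strand): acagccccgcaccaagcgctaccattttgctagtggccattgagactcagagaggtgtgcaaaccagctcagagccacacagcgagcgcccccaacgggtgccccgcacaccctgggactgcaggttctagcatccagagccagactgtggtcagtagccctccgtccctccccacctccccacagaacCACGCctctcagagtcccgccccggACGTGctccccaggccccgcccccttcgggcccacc
Ldha (chr7:46845554-46845803, + strand): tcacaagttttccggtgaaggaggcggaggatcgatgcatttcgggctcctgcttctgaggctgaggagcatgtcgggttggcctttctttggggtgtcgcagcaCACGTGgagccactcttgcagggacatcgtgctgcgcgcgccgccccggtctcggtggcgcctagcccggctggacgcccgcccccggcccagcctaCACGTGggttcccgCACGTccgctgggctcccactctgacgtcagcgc
Slc16a3 (chr11:120948817-120949066, + strand): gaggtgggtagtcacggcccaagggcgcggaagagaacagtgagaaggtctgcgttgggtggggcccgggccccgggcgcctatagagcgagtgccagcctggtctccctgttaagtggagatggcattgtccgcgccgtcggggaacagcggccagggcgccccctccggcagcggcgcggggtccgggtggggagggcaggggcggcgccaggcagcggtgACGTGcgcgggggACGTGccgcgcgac
Bnip3 (chr7:138909507-138909756, - strand): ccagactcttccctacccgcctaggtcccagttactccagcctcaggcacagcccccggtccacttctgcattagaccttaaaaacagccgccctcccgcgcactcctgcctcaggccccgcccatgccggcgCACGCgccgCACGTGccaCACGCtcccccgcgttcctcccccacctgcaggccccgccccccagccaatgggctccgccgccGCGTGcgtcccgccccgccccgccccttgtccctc
Aco1 (chr4:40143015-40143264, + strand): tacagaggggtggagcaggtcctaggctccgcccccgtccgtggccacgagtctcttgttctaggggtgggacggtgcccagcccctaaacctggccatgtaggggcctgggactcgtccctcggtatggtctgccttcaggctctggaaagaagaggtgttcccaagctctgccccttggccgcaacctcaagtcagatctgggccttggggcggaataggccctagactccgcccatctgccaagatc
The printed windows hold 2 matches before the start of Slc2a1, 5 before the first of the 2 starts of Ldha, 2 before that of Slc16a3 and 5 before that of Bnip3. The other start of Ldha has 1 match in the 250 bases before it and no ACGTG. Matches were found in genes of both directions. Of the other genes lower at both, Tpi1 has 0 in this window, Pfkl 1, Pgam1 3, Hif1a 3 and Ankrd37 4. Of the other genes higher at both, Idh3b has 0, Pdha1 3 and Ogdh, over its 6 starts, 2 to 4. Eno1 has 1 to 2 over 3 starts and Vegfa 0 to 2 over 2 starts, while Slc2a3 and Idh3a were not matched. A link of matches to direction was not tested. These counts describe letters in a window and say nothing of whether a factor bound there.

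Pyruvate dehydrogenase links glycolysis to the TCA cycle. Pdha1, its E1 alpha subunit, had 268, 283 and 269.5 CPM in early libraries of 48 h, against 208, 209 and 224 CPM in control libraries (0.36 ± 0.04, adjusted p = 3.64e-06). It had 220.0, 227 and 214 CPM in early libraries of 72 h, against 288, 306 and 299.7 CPM in control libraries (-0.44 ± 0.04, adjusted p = 3.91e-07). The arms did not overlap at either age and changed places between them, and the difference between arms in that step was -0.79 ± 0.06 (adjusted p = 1.13e-08). At 96 h Pdha1 was still lower in the early arm (-0.23 ± 0.04). Exons of Map3k15 on the other strand overlap 603 of its 3734 exon bases.

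Pdhb, the E1 beta subunit, had 157, 164 and 163 CPM in early libraries of 48 h, against 116, 120 and 111 CPM in control libraries (0.48 ± 0.05, adjusted p = 2.36e-07). It did not pass at 72 h (0.08) or over the control pulse (0.00) and was higher in the early arm at 96 h (0.36 ± 0.05). A pseudogene copy held 4.09% to 6.11% of the counts of Pdhb and the copy together. Dlat, the E2 subunit, rose over the control pulse (0.25 ± 0.05) and fell in the day after it (-0.23 ± 0.05). Pdha1, Pdhb and Dlat were thus not called alike at 48 h, at 72 h, at 96 h or over the control pulse.

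Among the dehydrogenases of the cycle, the subunits of the NAD-dependent isocitrate dehydrogenase were all higher in early than in control gastruloids at 48 h: Idh3a by 0.24 ± 0.05, Idh3b by 0.25 ± 0.04 and Idh3g by 0.15 ± 0.04. The last was not called on FPKM or without a filter. Idh3a had 172, 174 and 169 CPM in early libraries of 48 h, against 145, 146 and 146 CPM in control libraries, and at 96 h 157.5, 162 and 175 CPM, against 124, 123 and 109 CPM (0.47 ± 0.05, adjusted p = 1.66e-07), without overlap at either age. Idh3b rose over the control pulse (0.42 ± 0.04) and was lower in the early arm at 72 h (-0.26 ± 0.04) and 96 h (-0.21 ± 0.04), so the genes of the alpha and beta subunits were called in opposite directions at 96 h.

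Ogdh, the E1 subunit of oxoglutarate dehydrogenase, was higher at the end of both pulses (0.28 ± 0.04 and 0.23 ± 0.04) and at 96 h (0.20 ± 0.04). Dlst, the E2 subunit of that complex, rose over the control pulse (0.17 ± 0.04) and was lower in the early arm at 72 h (-0.13 ± 0.03). Cs, citrate synthase, which opens the cycle, fell over the control pulse (-0.18 ± 0.03) and from 48 to 72 h in the early arm (-0.35 ± 0.03), where its libraries had 311.5, 313 and 314 CPM at 72 h, against 401, 404 and 390 CPM at 48 h, without overlap.

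Of the cytosolic isozymes listed with the cycle, Aco1 and Mdh1 changed in several comparisons and Idh1 in none. Aco1, the cytosolic aconitase that also acts as an iron regulatory protein, had 87.6, 91.5 and 88.5 CPM in early libraries of 48 h, against 75.3, 76.4 and 68.85 CPM in control libraries (0.28 ± 0.05). It had 84.0, 84.1 and 82.4 CPM in early libraries of 72 h, against 117, 119 and 121 CPM in control libraries (-0.51 ± 0.04, adjusted p = 5.65e-08). It had 91.9, 96.5 and 89.8 CPM in early libraries of 96 h, against 150.1, 151 and 142 CPM in control libraries (-0.67 ± 0.04, adjusted p = 5.07e-10). No libraries of the arms overlapped, and the control arm rose in both steps (0.69 ± 0.05 and 0.31 ± 0.04).

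Mdh1, the cytosolic malate dehydrogenase of the malate-aspartate shuttle, did not pass at 48 h, and had 168, 177 and 169 CPM in early libraries of 72 h, against 219, 230.1 and 218 CPM in control libraries (-0.38 ± 0.04, adjusted p = 3.81e-07). The control arm rose over its pulse (0.54 ± 0.04) and the early arm rose from 72 to 96 h (0.36 ± 0.04), after which the libraries of 96 h ran from 213 to 232 CPM in the early arm and from 215 to 217 CPM in the control arm. Mdh2, its mitochondrial relative, fell in the control arm from 72 to 96 h (-0.30 ± 0.04) and was higher in the early arm at 96 h (0.16 ± 0.04). Idh1, the cytosolic NADP-dependent isocitrate dehydrogenase, passed in 0 of the 7 comparisons in edgeR with all libraries and, without all control libraries numbered 3, was lower in the early arm at 48 h (-0.21) and at 96 h (-0.18). Idh2, the mitochondrial NADP-dependent form, was lower in the early arm at 72 h (-0.17 ± 0.06) and 96 h (-0.15 ± 0.06), and both calls ended without all control libraries numbered 3 (adjusted p = 0.0648 and 0.205).

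Later in the cycle, Sucla2, a succinyl-CoA ligase subunit, and Fh1, fumarase, rose over the control pulse (0.36 ± 0.05 and 0.24 ± 0.04). Both were lower in the early arm at 72 h (-0.16 ± 0.05 and -0.13 ± 0.04), calls that ended without all control libraries numbered 3 (adjusted p = 0.0503 and 0.111). Suclg1, the alpha subunit of the same ligase, had a rise in the early arm at 48 h (0.14 ± 0.05) that ended without each of 5 of the 6 libraries compared.

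**Figure D5:**
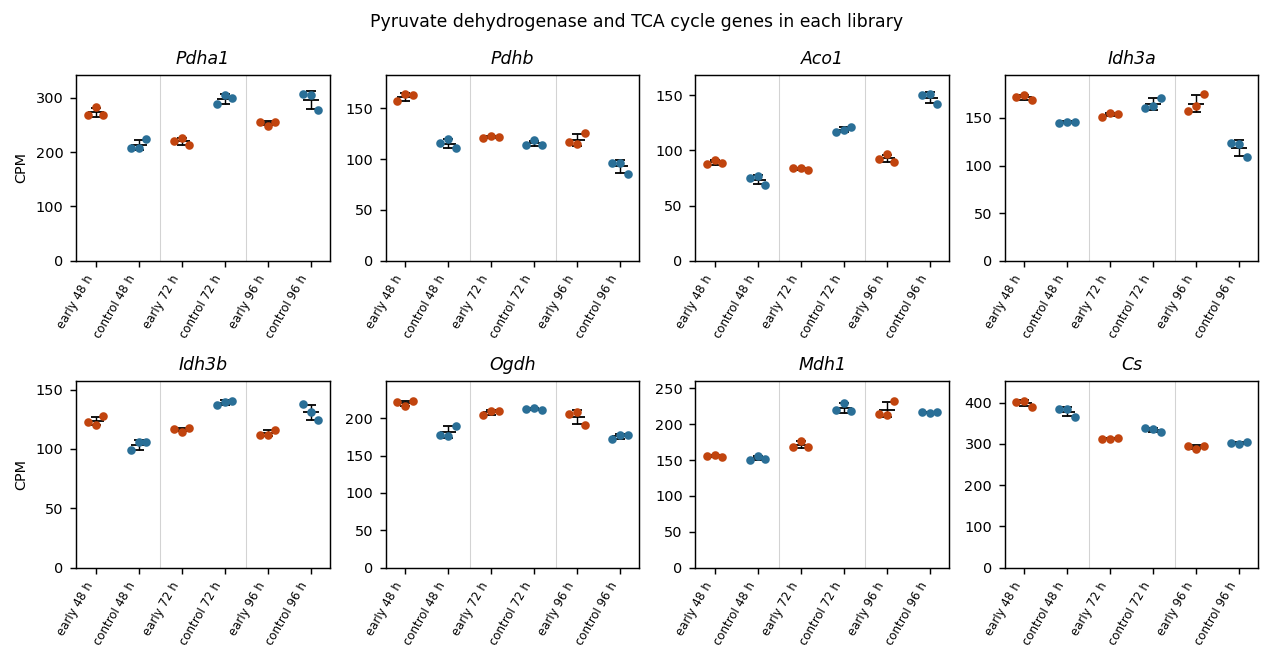
CPM of 8 pyruvate dehydrogenase and TCA cycle genes in each library, with colours and marks as in the plot of glycolytic genes (n = 3 per group). Pdha1, Aco1, Idh3b and Mdh1 lie lower in early than in control gastruloids at 72 h, and Pdha1, Pdhb, Aco1, Idh3a, Idh3b and Ogdh higher at 48 h.

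Other genes of these pathways, from lists chosen by role, did not all follow the members. Over the control pulse 6 of 8 pentose phosphate genes fell and 0 rose, beside 8 of 19 other glycolysis genes that rose and 5 that fell, 11 of 32 other hypoxia genes that rose and 10 that fell, and 8 of 25 other pyruvate and TCA cycle genes that rose and 8 that fell. All genes rose in 31.1% and fell in 30.3%, and those of at least 50 CPM in 24.6% and 44.0%, and the falls of the last 3 lists lie near 30.3%. At 48 h 4 of 8 pentose phosphate genes were lower in early than in control gastruloids, among them Pgd, of the oxidative branch (-0.36), and Tkt, a transketolase (-0.27), beside 20.7% of all genes. At 72 h 3 of 8 were higher, among them G6pdx, the entry enzyme of that branch (0.30), beside 21.7% of all genes. The 19 other glycolysis genes were called higher in 6 and lower in 2 in the early arm at 48 h. These counts were 4 and 2 at 72 h, with a median of -0.02 at both ages. The 25 other pyruvate and TCA cycle genes were higher in 7 and lower in 3 at 48 h (median 0.10). Their counts were 5 and 6 at 72 h (median -0.03). All genes were higher in 23.0% and lower in 20.7% at 48 h, and in 21.7% and 23.2% at 72 h. The difference between arms in the step from 48 to 72 h was positive for 6 of the 19 and negative for 4 (median -0.02). For the 25 it was positive for 4 and negative for 9 (median -0.13), beside 22.8% and 23.6% of all genes. Mpc1, a subunit of the mitochondrial pyruvate carrier, had 16.7 CPM in early and 5.66 CPM in control gastruloids of 48 h on average (1.57, adjusted p = 1.92e-07) and rose over the control pulse as well (1.55).

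Of 32 other hypoxia genes 9 were higher and 4 lower in the early arm at 72 h, with a median of 0.01, beside 21.7% and 23.2% of all genes, and those named here were chosen for the size of their change. Epas1, which encodes HIF2 alpha, averaged 12.2 CPM in early and 1.18 CPM in control gastruloids of 72 h (3.36, adjusted p = 1.35e-10). Ndrg1, a stress and hypoxia gene, averaged 42.8 CPM in early and 6.57 CPM in control gastruloids of 96 h (2.67, adjusted p = 1.92e-07), and Cited2, a HIF target that restrains HIF, averaged 39.5 CPM in early and 258 CPM in control gastruloids of 96 h (-2.71, adjusted p = 7.91e-14). Ddit4, an mTOR inhibitor induced by stress, was lower in the early arm at 72 h (-1.56), and Angptl4, a lipase inhibitor, was higher (1.49). At 96 h 12 of 32 of these genes were higher in the early arm and 11 lower, beside 29.5% and 29.6% of all genes.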

How the data were processed

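The members, the lists and the markers were chosen with earlier results of these data known. Gene counts of 18 libraries and a table of FPKM (fragments scaled by gene length and library size) were deposited by the authors. Per the submitters' processing notes, cutadapt 4.0, STAR 2.7.8a, Cufflinks 2.2.1 and the build mm10 were used, and the strand setting of the counting is not given in the sources used here. Per the labels' protocols, libraries were made with a stranded polyadenylated RNA kit.

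Counts were tested as the authors deposited them with edgeR 4.0.16 (R 4.3.3): genes passing filterByExpr, TMM scaling, 1 coefficient per group, all libraries in 1 quasi-likelihood fit, 2-sided tests and Benjamini-Hochberg adjustment over 16041 genes, called at an adjusted p under 0.05. Changes are log2 fold changes ± SE, and every adjusted p is from this fit unless another tool is named. Scripts were tested on simulated data. CPM are counts scaled by library size with the same factors, and levels across genes were divided by the union of a gene's exon lengths. FPKM were planned for these levels and were set aside because the authors' deposited FPKM list Pfkp at 0 in 6 libraries and Ankrd37 at 0 in 15 that hold counts of both. Shares within a gene family depend on the lengths used. In early replicate 1 of 48 h, Slc2a3 and Slc2a1 had 51.5 and 30.95 CPM per kilobase of exon, against 69.6 and 26.4 FPKM. Alternatives were DESeq2 1.42.0, its size factors, no filter on low counts, limma 3.58.1 on log2(FPKM + 0.1) and log2(FPKM + 1) with and without a filter, a replicate block, each library left out, and all 3 control libraries numbered 3 left out.

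Values per library are given for up to 3 members per role with the largest called changes, for isozymes called in opposite directions and for members that went against their role; other genes of the pathways are the largest called changes of each list. Copies were searched with BLAST+ 2.17.0 among transcripts, at 90% identity over at least 200 bases. Intervals for counting error are not given, since only differences between libraries are used.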

Additional observations from a re-analysis of the deposited data

Results flagged for a closer look

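The step from 48 to 72 h differed between the arms, by the interaction term of the edgeR fit, for many members. It was higher in the early arm for 15 glycolytic and hypoxia genes and lower for 3, and lower for 13 TCA cycle genes and higher for 0 (also 0 at an unadjusted p under 0.05, by DESeq2 and by limma on FPKM). Of all genes 22.8% were positive and 23.6% negative, and the 13 were 8 without all control libraries numbered 3 and 7 with no filter on low counts. Of these members, 6 of 29 glycolytic and hypoxia genes and 2 of 17 TCA cycle genes were called in opposite directions in the arms. The early arm rose and the control arm fell in Slc2a1 (difference 2.21), Slc16a3 (1.43), Bnip3 (1.18), Ldha (0.97), Pfkl (0.61) and Tpi1 (0.58), all on the log2 scale, a pattern of 4.69% of all genes. The early arm fell and the control arm rose in Pdha1 (-0.79) and Idh3a (-0.34), a pattern of 3.96% of all genes. The interaction term uses the libraries of the comparisons at 48 h, at 72 h and over the control pulse, so it is not separate from them.

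In the step from 72 to 96 h, where 17.8% of all genes were positive and 15.7% negative, the difference was positive for 4 glycolytic and hypoxia genes and negative for 5, and positive for 7 TCA cycle genes and negative for 0 (1 at an unadjusted p under 0.05 in edgeR, 1 by DESeq2 and 0 by limma on FPKM). Slc16a3 rose in the early arm and fell in the control arm (0.64), a pattern of 2.28% of all genes and a difference that was not called on FPKM.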

How the results depend on the processing

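Of 232 member calls in the 9 comparisons, 174 held in all alternatives that gave a value and 58 ended in at least 1; none of the 232 turned its direction. FPKM gave no value for 8 of these calls: Pfkp in 4 comparisons with control gastruloids of 72 or 96 h, and Ankrd37 in 4. On log2(FPKM + 0.1), log2(FPKM + 1) and log2(FPKM + 1) with no filter, limma called 2434, 2399 and 2308 genes higher in the early arm at 48 h (3694 in edgeR), 1484, 1582 and 1517 lower from 48 to 72 h in the early arm (3510) and 1571, 1659 and 1595 lower from 72 to 96 h there (2830). In the same order it called 4, 4 and 3 glycolytic and hypoxia genes lower from 72 to 96 h in the control arm (8), 6, 6 and 6 TCA cycle genes higher (2) and 3, 3 and 3 lower (5) from 48 to 72 h in the early arm, and 0, 0 and 0 lower from 72 to 96 h there (1). With no filter it called 5 TCA cycle genes higher at 48 h (8) and 2 lower at 96 h (5).

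With no filter, edgeR called 4 TCA cycle genes lower at 72 h (10), 3 lower at 96 h (5), 3 lower from 48 to 72 h (5) and 0 lower from 72 to 96 h (1) in the early arm, and in the difference between arms from 48 to 72 h 5 glycolytic and hypoxia genes (3) and 7 TCA cycle genes (13) were negative. DESeq2 and its size factors each called 1 glycolytic and hypoxia gene lower at 72 h (2), and both gave 1 negative TCA cycle gene in the difference from 72 to 96 h (0); DESeq2 called 2 TCA cycle genes lower from 72 to 96 h in the early arm (1).

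Without all 3 control libraries numbered 3, TCA cycle genes were lower in 1 at 48 h (0) and 6 at 72 h (10) and higher in 4 from 48 to 72 h in the early arm (2), and glycolytic and hypoxia genes were lower in 4 at 72 h (2) and 6 from 72 to 96 h in the early arm (3). In the difference between arms, 1 TCA cycle gene was positive (0) and 8 were negative (13) from 48 to 72 h, and 10 glycolytic and hypoxia genes (5) and 2 TCA cycle genes (0) were negative from 72 to 96 h. In all, 47 member results not called with all libraries were called in this setting.

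Leaving out 1 library at a time, TCA cycle genes called lower at 72 h numbered 6 to 8, those at 96 h 3 to 5, and those from 72 to 96 h in the early arm 0 to 2, and those higher from 48 to 72 h there 0 to 2. Glycolytic and hypoxia genes lower at 72 h numbered 1 to 2. In the difference from 72 to 96 h, 3 to 7 glycolytic and hypoxia genes were positive and 5 to 9 negative, and 0 to 2 TCA cycle genes were negative. The cause of these changes was not tested.

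Deviations of same-numbered libraries from their group means correlated at -0.014 to 0.158, the highest being that of control replicate 3 at 48 and 72 h. Correlations of differently numbered libraries were not computed, so these values cannot tell whether the numbers pair the libraries. With the replicate number as a block, 232 of the 232 member calls held and 1 TCA cycle gene was negative in the difference from 72 to 96 h (0).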
